A study of Mus musculus with 21 samples.

Results

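The amino acid transporter families Slc1, Slc3, Slc6, Slc7, Slc36, Slc38 and Slc43 were followed in mouse embryonic stem cells (ESCs) cultured with and without retinoic acid (RA). Members were all genes whose symbol is one of these 7 family names followed by the letter a and a number. The rule gave 61 genes, of 32285 genes listed in the time course tables and 25239 in the tables of the Cyp26a1 experiment. Genes with a level of at least 1 TPM, a unit of transcript abundance scaled for gene length and library total, in at least 3 libraries of an experiment were tested. These were 36 members in the time course and 34 in the Cyp26a1 experiment, 31 of them in both, and 22 members were tested in neither.

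Polyadenylated RNA was sequenced from 21 libraries, 3 for each of 7 groups. In the time course, wild type ESCs were harvested at 0 h (ESC_0h), after 12 h and 24 h with 2 µM RA (RA_12h and RA_24h), or after the same times without RA once LIF and 2i had been taken away (noRA_12h and noRA_24h). In the Cyp26a1 experiment, Cyp26a1 knockout cells (KO_RA24h) and wild type cells (WT_RA24h) both spent 24 h with 2 µM RA after LIF and 2i were removed. Cyp26a1 encodes an enzyme that breaks RA down. All cells had been grown on gelatin in medium with serum, added nonessential amino acids, LIF and 2i, which is the MEK inhibitor PD0325901 with the GSK3 inhibitor CHIR99021. Whether the RA cells of the time course also lost LIF and 2i is left unsaid in the labels, as are the name of the ESC line and the number of knockout clones. Replicates carry a number in the labels and no word on separate cultures, so the spread behind each p-value may be technical.

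Amino acids cross membranes through carriers of several unrelated families. Most Slc7 carriers are light chains that reach the cell surface bound to an Slc3 heavy chain, while the cationic carriers among them work alone. Slc1 and Slc38 carriers use the sodium gradient to take up glutamate, glutamine and small neutral amino acids, and Slc6 carriers use sodium and chloride for glycine, taurine, GABA, creatine and the monoamine transmitters. When amino acids run short, the kinase encoded by Eif2ak4 favours translation of the transcription factor ATF4, which binds C/EBP-ATF response elements at genes of amino acid synthesis and at several carrier genes. Mouse ESCs are known for a high demand for threonine, and glutamine carriers are among the most studied carriers of dividing cells.

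The depth was estimated at 2.96 to 3.91 aligned gigabases per time course library and 2.72 to 3.24 per Cyp26a1 library. In each library 11928 to 13482 genes reached 1 TPM. Within groups the libraries differed mainly along 1 axis, which held 67.2% of the within-group variance in the time course and 70.1% in the Cyp26a1 experiment. On that axis noRA_12h replicate 1, RA_24h replicate 2 and KO_RA24h replicate 3 stood farthest from the other libraries of their group, and member counts without them are given beside the results. The noRA_12h libraries spread to both sides, with replicate 1 at 40.2, replicate 2 at -35.1 and replicate 3 at -5.08. Cyp26a1 averaged 4.52 ± 0.458 TPM in KO_RA24h and 595 ± 10.8 TPM in WT_RA24h (SD, n = 3 each). The 7 pluripotency markers summed to 7072 to 9823 TPM per library in the time course, and single markers moved in both directions. In noRA_24h against ESC_0h 2 of the 7 were lower, which were Esrrb (125 ± 10.8 TPM in noRA_24h and 602 ± 61.8 TPM in ESC_0h) and Nanog (164 ± 6.97 TPM in noRA_24h and 527 ± 20.9 TPM in ESC_0h, SD, n = 3 each), and 2 were higher. In noRA_12h against ESC_0h 4 were higher and 2 lower, in RA_24h against noRA_24h 2 higher and 4 lower, and in KO_RA24h against WT_RA24h 6 higher and 0 lower. Their part in the differences of the transporter genes was not tested. The 6 feeder fibroblast markers summed to 4.37 to 17.6 TPM per time course library. The 6 primitive endoderm markers summed to 111 to 127 TPM in RA_24h against 2.49 to 2.79 TPM in noRA_24h, and to 102 to 108 TPM in KO_RA24h against 255 to 271 TPM in WT_RA24h. In such bulk samples, fewer cells of a type and less RNA per cell cannot be told apart.

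At 0 h a few members held most of the transporter mRNA, on the TPM scale, which is per length. The heavy chain gene Slc3a2, which carries no amino acid itself and brings its light chains to the surface, had the highest level at 343 ± 19.2 TPM, followed by its light chain gene Slc7a5, a carrier of leucine and other large neutral amino acids, at 218 ± 19.0 TPM. The creatine carrier gene Slc6a8 stood at 113 ± 5.49 TPM, the glutamine carrier gene Slc1a5 at 98.1 ± 7.71 TPM and Slc38a4, a sodium-coupled neutral amino acid carrier gene, at 97.5 ± 7.94 TPM, and the levels of Slc1a5 and Slc38a4 did not differ beyond their spread. Next came Slc38a10 at 84.4 ± 3.82 TPM and 3 genes for cationic amino acids and taurine, which were Slc7a1 at 77.2 ± 2.82 TPM, Slc6a6 at 66.6 ± 3.31 TPM and Slc7a3 at 60.1 ± 3.35 TPM (SD, n = 3 for each gene). The members summed to 1456 ± 67.8 TPM in ESC_0h, 1715 ± 32.6 TPM in noRA_12h and 2145 ± 29.6 TPM in noRA_24h (SD, n = 3 each).

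Some of the members known from brain, kidney or gut were near or at 0. The highest library of the time course held 0.0228 TPM for Slc1a2, the main glutamate carrier of astrocytes, and 0.027, 0.285 and 0.342 TPM for Slc6a2, Slc6a3 and Slc6a4, the carriers of noradrenaline, dopamine and serotonin. Slc6a18 and Slc7a12 were listed at 0 in all 15 libraries. The heavy chain Slc3a1 of kidney and gut reached 0.727 TPM at most. The other untested members were Slc1a7, Slc36a2, Slc36a3, Slc38a11, Slc6a5, Slc6a11, Slc6a14, Slc6a17, Slc6a19, Slc6a21, Slc7a4, Slc7a10, Slc7a13, Slc7a14 and Slc7a15, with no library above 1.52 TPM in the time course, and Slc36a4, Slc7a2 and Slc7a9, which were tested in the Cyp26a1 experiment only. Of the 36 members tested in the time course, 26 had at least 1 TPM in all 15 libraries and 10 did not. Among these 10, Slc38a5 and Slc38a8 reached 1 TPM in the RA libraries alone, and Slc7a8 in the RA libraries and 1 ESC_0h library, so these 3 genes could be tested only because they were high with RA. Slc6a7 reached it in the ESC_0h libraries and 2 noRA_12h libraries, and passed only through ESC_0h. Member counts of RA against noRA are also given without Slc38a5, Slc38a8 and Slc7a8, and those against ESC_0h without Slc6a7. Slc6a7 stays in the RA counts, and the other member counts of the time course keep all of these genes. None of these genes is support for any count.

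Without LIF and 2i for 12 h, the ESCs had an altered set of carriers. Exporter and importer genes of cationic amino acids, Slc7a7 and Slc7a3, rose 9.52-fold and 6.42-fold, while the neutral amino acid carrier genes Slc1a4 and Slc1a5, the glycine carrier gene Slc6a9 and the leucine carrier pair Slc7a5 and Slc3a2 fell. In noRA_12h against ESC_0h, 9 members were higher, 12 lower and 15 did not pass (limma on log2(TPM + 1), Benjamini-Hochberg adjusted p below 0.05 over all genes tested). That was 58.3% of the tested members, against 42.5% of all 13948 genes tested, and 22% of all genes were higher and 20.4% lower. The groups did not overlap for 25 of the 36 members and for 49% of all genes. Without noRA_12h replicate 1 the split was 8 higher and 13 lower. The median log2 difference was -0.12 for the members and -0.04 for all genes. At 24 h, noRA_24h against ESC_0h, 11 members were higher and 12 lower, 63.9% of those tested against 51.9% of all genes (25.4% higher and 26.5% lower), and groups without overlap were found for 26 members and for 65.3% of all genes. Both contrasts share the ESC_0h libraries. With the correction for GC content and length, the 24 h split was 13 higher and 8 lower. Without Slc6a7 it was 9 higher and 11 lower of 35 at 12 h (57.1%) and 11 and 11 at 24 h (62.9%).

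**Figure D1:**
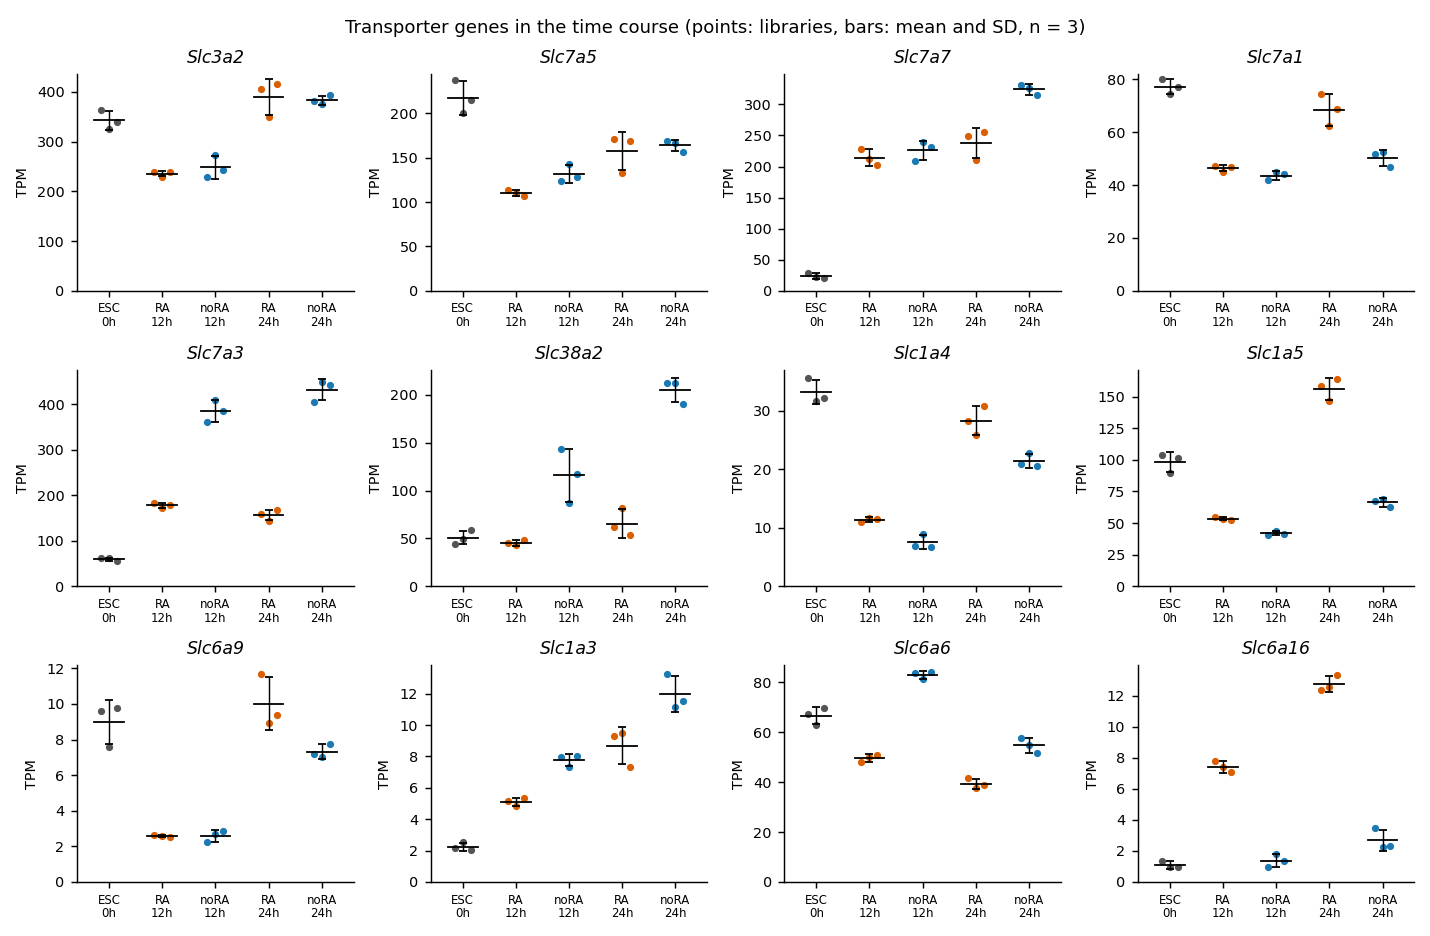
TPM of 12 transporter genes in the 5 groups of the time course, with each library as a point and the mean and SD as bars. Slc7a7 and Slc7a3 lie far above their ESC_0h level in every later library, Slc1a4 and Slc6a9 are lowest in both 12 h groups, and Slc38a2 is highest in noRA_12h and noRA_24h.

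Slc7a7 encodes the light chain that pairs with Slc3a2 and exports cationic amino acids in exchange for neutral amino acids and sodium, and the human gene is the one mutated in lysinuric protein intolerance. It was found at 209, 239 and 231 TPM in noRA_12h and 332, 327 and 315 TPM in noRA_24h, against 28.7, 22.5 and 20.1 TPM in ESC_0h. Neither later group overlapped with ESC_0h, and they did not overlap with each other. The change was 9.52-fold at 12 h (log2 difference 3.21, SE 0.11, limma adjusted p = 1.2e-10) and 13.7-fold at 24 h (log2 difference 3.73, SE 0.11, limma adjusted p = 1.88e-11). Both calls held under every other setting and without each library in turn. The gene lies at chr14:54369442-54417780, minus strand (mm10), in the authors' tables, and 232 bases of its exons overlap exons of Oxa1l on the opposite strand. Strand is not stated for these tables, so reads of that stretch cannot be assigned.

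The RefSeq promoter window of Slc7a7 is shown because this gene had the largest change from ESC_0h of all members tested. The 8-letter core of the C/EBP-ATF response element, TGATGNAA, was searched on both strands, and the capitals mark its matches. The window, of the RefSeq start farthest upstream, covers chr14:54417895-54418194 of GRCm38.p6 (mm10), minus strand, written 5′ to 3′ along the gene.
Slc7a7: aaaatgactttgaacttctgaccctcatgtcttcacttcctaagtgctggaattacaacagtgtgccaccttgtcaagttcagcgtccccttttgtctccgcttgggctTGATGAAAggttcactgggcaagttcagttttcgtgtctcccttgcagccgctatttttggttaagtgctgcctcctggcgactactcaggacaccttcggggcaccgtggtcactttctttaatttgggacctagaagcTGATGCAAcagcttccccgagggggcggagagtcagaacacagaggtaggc
The matches start 141 bases and 1 base before the annotated start, and the letters of the match nearest the start lie 243 bases before another RefSeq start of the gene. The other RefSeq windows of Slc7a7, chr14:54409423-54409722, chr14:54410154-54410453 and chr14:54417630-54417929, held no match. A match is a description of the letters and shows no binding.

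The remaining partners of Slc3a2 moved otherwise. Slc7a5 was at 124, 143 and 128 TPM in noRA_12h, against 238, 200.2 and 215 TPM in ESC_0h, and the groups did not overlap (log2 difference -0.72, SE 0.09, limma adjusted p = 3.77e-05). Slc3a2 had 228, 274 and 242 TPM in noRA_12h, against 363, 325 and 339.7 TPM in ESC_0h, again without overlap (log2 difference -0.47, SE 0.08, limma adjusted p = 0.000226). Slc7a6, which like Slc7a7 exchanges cationic for neutral amino acids, fell by a small amount (log2 difference -0.26, SE 0.08, limma adjusted p = 0.0244), a call that ended without noRA_12h replicate 2 or any ESC_0h library (range of the log2 difference without each library in turn -0.31 to -0.19). Slc7a8, a second carrier of large neutral amino acids, averaged 0.720 ± 0.213 TPM in noRA_12h and 0.866 ± 0.205 TPM in ESC_0h (SD, n = 3 each) and did not pass. Slc7a11, the cystine and glutamate exchanger, was listed at 1.52, 1.57 and 0 TPM in noRA_12h, against 1.09, 0.713 and 0.974 TPM in ESC_0h, and did not pass in any comparison. The light chains together held 0.777 ± 0.0237 times the TPM of Slc3a2 in ESC_0h, 1.53 ± 0.0550 times in noRA_12h and 1.33 ± 0.0642 times in noRA_24h (SD, n = 3 each), with Slc7a7 as the largest part at the later times.

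At 24 h Slc3a2 was back at 382, 376 and 393 TPM in noRA_24h, 0.63 above noRA_12h on the log2 scale (SE 0.08, limma adjusted p = 3.54e-05). Against ESC_0h the 24 h difference of Slc3a2 was 0.16 and did not pass (limma adjusted p = 0.0898). Slc7a5 recovered in part, with 169, 166 and 156 TPM in noRA_24h, and remained below ESC_0h (log2 difference -0.40, SE 0.09, limma adjusted p = 0.00275), a call that ended with the correction for GC content and length (limma adjusted p = 0.0556).

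The cationic carriers moved in opposite directions. Slc7a1 and Slc7a3 both take up arginine, lysine and ornithine. Slc7a3 had 362, 409 and 386 TPM in noRA_12h and 405, 449 and 443 TPM in noRA_24h, against 62.0, 62.0 and 56.2 TPM in ESC_0h. Slc7a1 had 41.8, 44.9 and 44.1 TPM in noRA_12h and 51.6, 52.5 and 46.7 TPM in noRA_24h, against 80.1, 74.5 and 77.1 TPM in ESC_0h. Neither gene overlapped between ESC_0h and the later groups. Slc7a3 rose 6.42-fold at 12 h (log2 difference 2.66, SE 0.07, limma adjusted p = 9.3e-12), while Slc7a1 fell (log2 difference -0.81, SE 0.07, limma adjusted p = 7.96e-07). Slc7a3 made up 43.8 ± 1.64% of the TPM of both genes in ESC_0h, 89.8 ± 0.246% in noRA_12h and 89.6 ± 0.886% in noRA_24h (SD, n = 3 each). The cationic carriers Slc7a2 and Slc7a4 were below the level for testing in the time course.

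Some members dipped at 12 h. In all, 7 were lower in noRA_12h than in ESC_0h and higher again in noRA_24h than in noRA_12h. They were Slc1a4, Slc1a5, Slc1a6, Slc3a2, Slc6a9, Slc7a1 and Slc7a5. The share of all genes with this course was not counted, so whether it was more frequent among the members is not known. The comparison of noRA_24h with noRA_12h was added after the values had been seen, and it shares its libraries with the contrasts against ESC_0h. It gave 16 members higher and 7 lower, 63.9% of those tested, against 39.6% of all genes (17.1% higher and 22.6% lower), and groups without overlap were found for 26 members and 52.1% of all genes. With the correction for GC content and length, the split was 17 members higher and 3 lower, and without noRA_12h replicate 1 it was 15 and 6. The return was small for Slc7a1 (log2 difference 0.20, SE 0.07, limma adjusted p = 0.0384) and Slc7a5 (log2 difference 0.31, SE 0.09, limma adjusted p = 0.019). It was lost for Slc7a1 under 4 other settings and without any library but noRA_24h replicate 3 (range 0.17 to 0.25), and for Slc7a5 with median-of-ratios scaling and without noRA_12h replicate 3 or noRA_24h replicate 1 or 2 (range 0.27 to 0.37). The glutamate carrier gene Slc1a6 was listed at 0.150, 0 and 0 TPM in noRA_12h and 0.779, 1.67 and 0.745 TPM in noRA_24h, against 1.52, 1.25 and 0.900 TPM in ESC_0h, so its dip rests on very low levels.

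Slc1a4, a carrier of serine, alanine and threonine, had the largest fall of all members tested at 12 h. It stood at 6.98, 8.93 and 6.68 TPM in noRA_12h, against 35.6, 31.7 and 32.2 TPM in ESC_0h, a 4.40-fold lower mean (log2 difference -2.01, SE 0.10, limma adjusted p = 4.54e-09). In noRA_24h it held 20.9, 22.9 and 20.6 TPM, above every noRA_12h library (log2 difference 1.40, SE 0.10, limma adjusted p = 5.24e-07) and below every ESC_0h library. Its gene lies at chr11:20302180-20332713, minus strand (mm10). Its promoter window holds 1 match to the same core, on the reverse strand and 4 bases before the annotated start. This window is shown as well because Slc1a4 and Slc7a7 each hold a match within a few bases of a RefSeq start and moved in opposite directions at 12 h. For Slc7a7 this is so only at the start farthest upstream. The window covers chr11:20332664-20332963 of GRCm38.p6 (mm10), minus strand, 5′ to 3′ along the gene, with the match in capitals.
Slc1a4: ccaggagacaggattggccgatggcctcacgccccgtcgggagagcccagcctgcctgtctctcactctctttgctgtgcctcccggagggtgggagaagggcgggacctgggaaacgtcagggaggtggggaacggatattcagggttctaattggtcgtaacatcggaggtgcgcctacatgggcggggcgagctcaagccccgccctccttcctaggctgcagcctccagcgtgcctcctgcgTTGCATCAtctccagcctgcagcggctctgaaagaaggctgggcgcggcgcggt

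Slc1a5, the main glutamine carrier of dividing cells, and Slc6a9, which takes up glycine, followed the same course. Slc1a5 had 40.9, 44.0 and 41.1 TPM in noRA_12h and 67.7, 69.3 and 62.6 TPM in noRA_24h, against 104, 89.3 and 101 TPM in ESC_0h (log2 difference -1.20, SE 0.07, limma adjusted p = 1.31e-08 at 12 h). Slc6a9 had 2.23, 2.67 and 2.86 TPM in noRA_12h and 7.21, 7.0 and 7.77 TPM in noRA_24h, against 9.59, 7.58 and 9.77 TPM in ESC_0h (log2 difference -1.47, SE 0.12, limma adjusted p = 6.05e-07 at 12 h). At 24 h Slc6a9 overlapped with ESC_0h and did not pass (limma adjusted p = 0.103), while Slc1a5 stayed lower (log2 difference -0.55, SE 0.07, limma adjusted p = 1.62e-05). Exons of Slc6a9 overlap those of Ccdc24 on the opposite strand by 1258 bases, so its level is uncertain.

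Other Slc1, Slc6 and Slc38 members moved one way at both times. The glutamate carrier gene Slc1a3 had 7.98, 7.32 and 8.04 TPM in noRA_12h and 13.2, 11.1 and 11.6 TPM in noRA_24h, against 2.17, 2.53 and 2.02 TPM in ESC_0h (log2 difference 2.00, SE 0.11, limma adjusted p = 8.56e-09 at 24 h). Slc38a2, a sodium-coupled carrier of small neutral amino acids known to rise when amino acids are short, had 143, 87.1 and 117 TPM in noRA_12h and 213, 212 and 191 TPM in noRA_24h, against 44.3, 49.8 and 58.3 TPM in ESC_0h. The noRA_12h libraries of Slc38a2 spread widely, highest in replicate 1 and lowest in replicate 2, which lay at opposite ends of the within-group axis. All 3 lay above ESC_0h (log2 difference 1.15, SE 0.17, limma adjusted p = 0.000134 at 12 h and log2 difference 2.00, SE 0.17, limma adjusted p = 6.28e-07 at 24 h). Slc6a15, a neutral amino acid carrier gene, was higher at both times (1.03 and 1.40, limma adjusted p = 0.0241 and 0.00326), and its 12 h call ended without noRA_12h replicate 1 and without ESC_0h replicate 1 or 2 (range 0.67 to 1.34). Slc6a13, for GABA and taurine, had the same direction from low levels (0.70 and 0.63, limma adjusted p = 0.0018 and 0.00313).

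Among genes lower at both times, Slc38a7 and Slc36a1 act at lysosomes. Slc38a7, which in human cells releases glutamine from lysosomes, had 23.5, 24.9 and 25.3 TPM in noRA_12h and 18.2, 20.5 and 21.1 TPM in noRA_24h, against 62.8, 46.1 and 50.9 TPM in ESC_0h (log2 difference -1.37, SE 0.12, limma adjusted p = 4.76e-07 at 24 h). Slc36a1, the proton-coupled carrier of lysosomes, averaged 4.71 ± 0.287 TPM in noRA_12h and 3.44 ± 0.238 TPM in noRA_24h, against 9.16 ± 1.16 TPM in ESC_0h (SD, n = 3 each, log2 difference -1.19, SE 0.12, limma adjusted p = 2.1e-06 at 24 h). No noRA library of either gene reached its ESC_0h range. Slc38a9, the lysosomal arginine sensor of mTORC1, averaged 3.43 ± 0.0857 TPM in noRA_24h and 3.18 ± 0.420 TPM in ESC_0h and did not pass. Slc38a10 (-0.37 and -0.70), whose exons overlap those of an antisense gene model, was also lower at both times. So was the proline carrier gene Slc6a7 (-1.01 and -1.40), a description only, since the ESC_0h libraries brought it past the filter. Slc6a12, for betaine and GABA, was listed at 0, 0 and 1.10 TPM in noRA_24h, against 0.928, 1.15 and 1.07 TPM in ESC_0h, groups that overlapped. Its call (log2 difference -0.68, SE 0.24, limma adjusted p = 0.0305) was lost without noRA_24h replicate 1 or 2 or any ESC_0h library (range -1.03 to -0.50).

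The taurine carrier gene Slc6a6 and the glutamate carrier gene Slc1a1 did the reverse of the dip, higher at 12 h than at 0 h and lower again at 24 h than at 12 h. Slc6a6 averaged 82.9 ± 1.51 TPM in noRA_12h and 54.7 ± 3.00 TPM in noRA_24h, against 66.6 ± 3.31 TPM in ESC_0h (SD, n = 3 each), so it ended below its start (-0.28 at 24 h, limma adjusted p = 0.00166), a call that ended with the correction for GC content and length (limma adjusted p = 0.0508). Slc1a1 returned to 5.26 ± 0.297 TPM in noRA_24h, against 5.35 ± 0.495 TPM in ESC_0h, and its exons overlap those of 4430402I18Rik on the opposite strand by 226 bases.

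The creatine carrier gene Slc6a8 did not pass at 12 h (113 ± 7.83 TPM in noRA_12h and 113 ± 5.49 TPM in ESC_0h) and was lower at 24 h (log2 difference -0.34, SE 0.06, limma adjusted p = 0.000576), a call that ended with the correction for GC content and length (limma adjusted p = 0.651). Of the Slc43 carriers, which let large neutral amino acids pass down their gradient, Slc43a1 (log2 difference 0.90, SE 0.16, limma adjusted p = 0.000356) and Slc43a3 (log2 difference 0.46, SE 0.10, limma adjusted p = 0.0016) were higher at 24 h and did not pass at 12 h, and Slc43a2 averaged 10.5 ± 1.56 TPM in noRA_24h and 8.22 ± 1.59 TPM in ESC_0h and did not pass. Slc43a3 belongs to the family by sequence, and the human protein carries purine nucleobases. Slc38a4, one of the most abundant neutral amino acid carriers here, averaged 120.1 ± 1.15 TPM in noRA_24h and 97.5 ± 7.94 TPM in ESC_0h and did not pass (limma adjusted p = 0.134). Slc38a1, which takes up glutamine, was slightly higher at 24 h (0.30, limma adjusted p = 0.02), and its call ended without ESC_0h replicate 2 or noRA_24h replicate 1 or 2 (range 0.26 to 0.34).

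With RA for 12 h, Slc38a2, Slc7a3 and Slc6a6 had the largest falls among the members past the threshold, and Slc6a16 and Slc43a1 were higher. In RA_12h against noRA_12h, 10 members were higher, 4 lower and 22 did not pass, 38.9% of those tested against 17.4% of all genes (10.2% higher and 7.19% lower), and the groups did not overlap for 21 members and 36% of all genes. Without noRA_12h replicate 1 the split was 9 higher and 5 lower, and with the correction for GC content and length 11 higher and 8 lower. At 24 h, RA_24h against noRA_24h, 13 members were higher, 10 lower and 13 did not pass, 63.9% of those tested against 35.2% of all genes (22.8% higher and 12.5% lower), and the groups did not overlap for 26 members and 43.6% of all genes. Without RA_24h replicate 2 these were 14 higher and 10 lower. The higher members include Slc38a5, Slc38a8 and Slc7a8 at both times. Without these 3, which passed the filter through the RA libraries, 7 were higher and 4 lower of 33 at 12 h (33.3%, median log2 difference -0.05), and 10 were higher and 10 lower at 24 h (60.6%, median 0.05). The median log2 difference of the members was -0.01 at 12 h and 0.11 at 24 h, against -0.01 and 0.02 for all genes. Of the members, 13 passed at both times in 1 direction, among them these 3, 1 at 12 h only and 10 at 24 h only. This split was not counted over all genes, of which more passed at 24 h (35.2%) than at 12 h (17.4%). These comparisons share the noRA libraries with those against ESC_0h, so values are set side by side without a test between them.

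**Figure D2:**
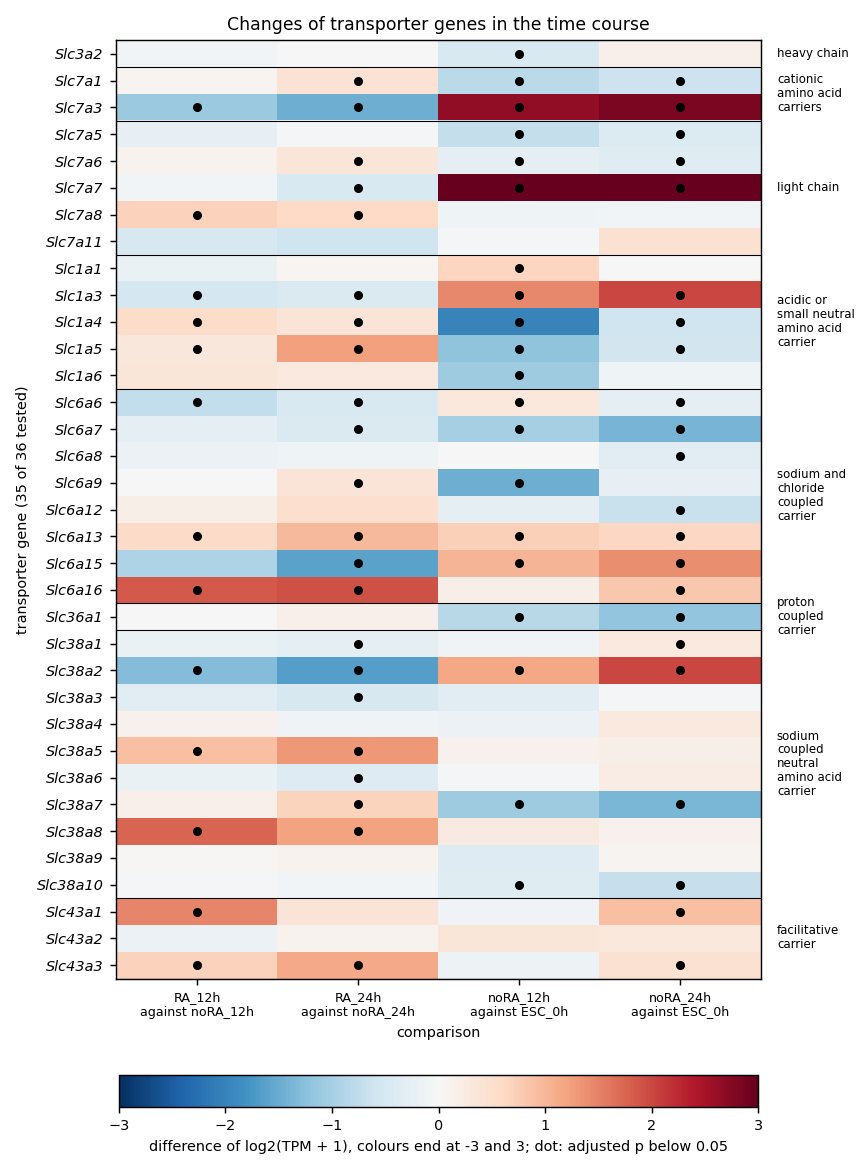
Differences of log2(TPM + 1) for 35 of the 36 transporter genes tested in the time course, grouped by role, in 4 comparisons, with colour from blue (lower in the group named first) to red (higher) and a dot where the limma adjusted p was below 0.05. In Slc7a3 and Slc38a2 the 2 RA columns are blue and the 2 columns against ESC_0h are red, and these columns share the noRA libraries.

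Some members that had risen without RA stood lower with it, among them Slc38a2, Slc7a3 and Slc6a15. Slc38a2 had 61.9, 81.8 and 53.1 TPM in RA_24h against 213, 212 and 191 TPM in noRA_24h, and 44.8, 43.1 and 48.9 TPM in RA_12h against 143, 87.1 and 117 TPM in noRA_12h. The ESC_0h libraries ranged between 44.3 and 58.3 TPM, and the RA libraries did not overlap with the noRA libraries of their time (log2 difference -1.30, SE 0.17, limma adjusted p = 0.000152 at 12 h and log2 difference -1.65, SE 0.17, limma adjusted p = 8.79e-06 at 24 h). Slc7a3 had 160.0, 144 and 167 TPM in RA_24h against 405, 449 and 443 TPM in noRA_24h, and 184, 173 and 179 TPM in RA_12h against 362, 409 and 386 TPM in noRA_12h. Every RA library of Slc7a3 was above every ESC_0h library and below every noRA library (log2 difference -1.10, SE 0.07, limma adjusted p = 1.48e-07 at 12 h and log2 difference -1.46, SE 0.07, limma adjusted p = 3.68e-09 at 24 h). Slc6a15 had 1.57, 2.40 and 0.477 TPM in RA_24h against 6.59, 5.52 and 6.49 TPM in noRA_24h (log2 difference -1.61, SE 0.33, limma adjusted p = 0.00213), and its 12 h difference of -0.93 did not pass (limma adjusted p = 0.0753).

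Slc7a1, the other cationic importer, went the opposite way to Slc7a3 at 24 h. Slc7a1 had 74.5, 62.4 and 68.8 TPM in RA_24h against 51.6, 52.5 and 46.7 TPM in noRA_24h, with no overlap (log2 difference 0.44, SE 0.07, limma adjusted p = 0.000306). At 12 h its means were 46.4 ± 1.14 TPM in RA_12h and 43.6 ± 1.60 TPM in noRA_12h and it did not pass. Slc7a3 made up 69.6 ± 1.30% of the TPM of both genes in RA_24h and 89.6 ± 0.886% in noRA_24h (SD, n = 3 each). The exporter gene Slc7a7 was lower at 24 h, with 249, 211 and 255 TPM in RA_24h against 332, 327 and 315 TPM in noRA_24h (log2 difference -0.45, SE 0.11, limma adjusted p = 0.00679) and 214 ± 13.1 TPM in RA_12h against 226 ± 15.6 TPM in noRA_12h, which did not pass. Its fellow exchanger Slc7a6 was higher at 24 h (log2 difference 0.36, SE 0.08, limma adjusted p = 0.00506), and that call was lost when only the compared groups were fitted.

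Slc1a5 had the largest rise with RA among members above 50 TPM. It was found at 158, 147 and 164 TPM in RA_24h against 67.7, 69.3 and 62.6 TPM in noRA_24h, and at 54.7, 53.3 and 52.2 TPM in RA_12h against 40.9, 44.0 and 41.1 TPM in noRA_12h. The RA_24h libraries were above ESC_0h as well, the RA_12h libraries below it. The difference was 2.35-fold at 24 h (log2 difference 1.22, SE 0.07, limma adjusted p = 2.05e-08) and 1.27-fold at 12 h (log2 difference 0.34, SE 0.07, limma adjusted p = 0.00323), and the 12 h call ended with the correction for GC content and length (limma adjusted p = 0.0923). Slc1a4 had 28.3, 25.9 and 30.8 TPM in RA_24h against 20.9, 22.9 and 20.6 TPM in noRA_24h (log2 difference 0.38, SE 0.10, limma adjusted p = 0.0106) and 10.9, 11.7 and 11.5 TPM in RA_12h against 6.98, 8.93 and 6.68 TPM in noRA_12h (log2 difference 0.55, SE 0.10, limma adjusted p = 0.00198). The 24 h call of Slc1a4 ended without RA_24h replicate 3 (range without each library 0.32 to 0.44) and with the correction for GC content and length. Slc6a9 passed at 24 h only, with 11.7, 8.93 and 9.38 TPM in RA_24h against 7.21, 7.0 and 7.77 TPM in noRA_24h (log2 difference 0.39, SE 0.12, limma adjusted p = 0.0249), a call that ended under 3 other settings and without RA_24h replicate 1 or noRA_24h replicate 1 or 2 (range 0.29 to 0.46).

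The leucine carrier pair did not pass with RA. Slc3a2 averaged 390.2 ± 35.9 TPM in RA_24h and 384 ± 8.75 TPM in noRA_24h, and 235 ± 4.93 TPM in RA_12h and 248 ± 23.2 TPM in noRA_12h. Slc7a5 averaged 157 ± 21.5 TPM in RA_24h and 164 ± 6.71 TPM in noRA_24h, and 110.2 ± 3.16 TPM in RA_12h and 132 ± 9.71 TPM in noRA_12h (SD, n = 3 each). The groups overlapped for both genes at 24 h. Slc7a8, the low second carrier of large neutral amino acids, had 1.87, 1.63 and 1.56 TPM in RA_24h against 0.751, 0.838 and 0.698 TPM in noRA_24h, a description only, since the RA libraries brought it past the filter.

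Several of the members higher with RA had low levels. Slc6a16, whose substrate is not known, was at 12.3, 12.6 and 13.3 TPM in RA_24h against 3.46, 2.26 and 2.31 TPM in noRA_24h, and at 7.82, 7.39 and 7.08 TPM in RA_12h against 0.969, 1.81 and 1.34 TPM in noRA_12h. Its groups did not overlap at either time, 5.41-fold at 12 h (log2 difference 1.84, SE 0.15, limma adjusted p = 2.37e-06) and 4.77-fold at 24 h (log2 difference 1.92, SE 0.15, limma adjusted p = 6.28e-07). Slc38a8 had 1.93, 2.33 and 2.15 TPM in RA_24h against 0.256, 0.523 and 0.284 TPM in noRA_24h. Slc38a5, a glutamine carrier gene, had 2.73, 2.31 and 3.39 TPM in RA_24h against 0.494, 0.429 and 0.737 TPM in noRA_24h. Both passed the filter through the RA libraries alone, so these values are a description. Slc43a3 had 9.71, 8.87 and 10.3 TPM in RA_24h against 3.78, 3.59 and 4.05 TPM in noRA_24h (log2 difference 1.14, SE 0.10, limma adjusted p = 1.44e-06) and was higher at 12 h as well (0.70, limma adjusted p = 0.000243).

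Slc6a13 and the taurine carrier gene Slc6a6 did not share a direction with RA. Slc6a13 averaged 2.73 ± 0.577 TPM in RA_24h and 0.904 ± 0.259 TPM in noRA_24h (SD, n = 3 each) and was higher at both times (0.58 and 0.97, limma adjusted p = 0.0159 and 0.000227). Its 12 h call ended without noRA_12h replicate 1 or RA_12h replicate 1 (range 0.46 to 0.66). That call also ended when only the compared groups were fitted, and with the correction for GC content and length. Slc6a6 was lower with RA, at 41.4, 37.7 and 38.7 TPM in RA_24h against 57.7, 54.7 and 51.7 TPM in noRA_24h (log2 difference -0.47, SE 0.06, limma adjusted p = 4.99e-05) and at 48.0, 50.0 and 50.9 TPM in RA_12h against 83.6, 81.2 and 83.9 TPM in noRA_12h (log2 difference -0.73, SE 0.06, limma adjusted p = 2.23e-06).

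Among the other members, the lysosomal Slc38a7 was higher at 24 h (32.6 ± 4.57 TPM in RA_24h and 19.9 ± 1.55 TPM in noRA_24h, log2 difference 0.68, SE 0.12, limma adjusted p = 0.000543) and Slc38a3, a glutamine carrier gene, was lower (1.90 ± 0.315 and 3.04 ± 0.114 TPM, log2 difference -0.49, SE 0.12, limma adjusted p = 0.00818). The glutamate carrier gene Slc1a3 was lower at 12 h (log2 difference -0.53, SE 0.11, limma adjusted p = 0.00518) and 24 h (log2 difference -0.42, SE 0.11, limma adjusted p = 0.0103). Both calls of Slc1a3 ended with the correction for GC content and length, and the 24 h call also without noRA_24h replicate 1 or RA_24h replicate 3 (range -0.48 to -0.32). The lower values of Slc38a1, Slc38a6 and Slc6a7 at 24 h had log2 differences of -0.27, -0.39 and -0.44, but their calls rest on single libraries. Those of Slc38a1 and Slc38a6 were lost without any library but RA_24h replicate 2 (ranges -0.34 to -0.17 and -0.49 to -0.34), and that of Slc6a7, listed at 0.117, 0.339 and 0 TPM in RA_24h against 0.648, 0.401 and 0.607 TPM in noRA_24h, without replicate 1 or 3 of either group (range -0.55 to -0.34). The calls of Slc38a1 and Slc38a6 also ended with the correction for GC content and length. When only the compared groups were fitted, those of Slc38a1, Slc38a6 and Slc6a7 ended. Slc6a8, Slc38a10, Slc36a1, Slc38a9, Slc43a2, Slc1a1 and Slc38a4 did not pass at either time, with log2 differences between -0.19 and 0.16. The 6 primitive endoderm markers summed to 20.5 to 24.4 TPM in RA_12h against 1.92 to 3.26 TPM in noRA_12h, beside the 24 h sums given above. Of the 6, 3 were higher with RA at 12 h and 6 at 24 h, and their part in these results was not tested.

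The RA difference changed between the times for 4 members. It grew for Slc1a5, by 0.88 on the log2 scale (SE 0.10, limma adjusted p = 0.000108). It shrank for Slc43a1, a leucine carrier gene, with a change of -1.07 (SE 0.22, limma adjusted p = 0.0108). Slc43a1 had 11.3, 10.9 and 10.3 TPM in RA_12h against 3.42, 3.94 and 2.58 TPM in noRA_12h, and 11.7, 8.21 and 11.4 TPM in RA_24h against 7.39, 8.12 and 7.26 TPM in noRA_24h. The noRA level was higher at 24 h than at 12 h (log2 difference 1.01, SE 0.16, limma adjusted p = 0.000315). For Slc7a3 the change was -0.35, close to the threshold (SE 0.10, limma adjusted p = 0.0468). These 4 were 11.1% of the members tested, against 6.85% of all genes (4.17% with a positive and 2.68% with a negative change). Without noRA_12h replicate 1 there were 3 such members, and without RA_24h replicate 2 there were 5.

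In cells without Cyp26a1 kept in RA for 24 h, 7 members were lower and 2 higher than in wild type cells. The lower genes were Slc43a3, Slc1a4, Slc1a3, Slc7a6, Slc7a1, Slc38a7 and Slc1a5, and Slc7a3 was among the higher ones. The 9 made up 26.5% of the 34 members tested, against 9.99% of all 12848 genes (3.34% higher and 6.65% lower). The groups did not overlap for 17 members and 32.6% of all genes, and the median log2 difference was -0.18 for the members and -0.05 for all genes. The split of all genes was 429 higher and 855 lower, and with median-of-ratios scaling 522 of each. The count of members rests on single libraries, as it was 14 without KO_RA24h replicate 3 (4 higher and 10 lower), 5 without KO_RA24h replicate 1 or 2 and 2 without any 1 of the WT_RA24h libraries. With FPKM, or with replicate number as a block, 1 member was higher and 8 were lower.

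**Figure D3:**
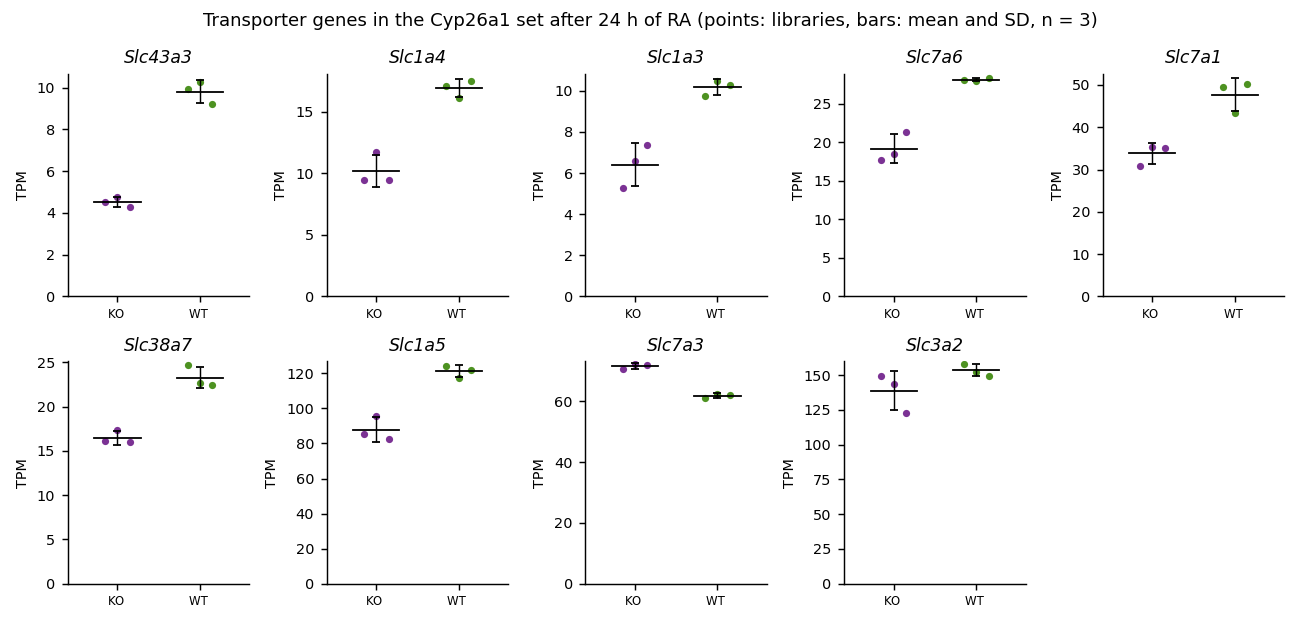
TPM of 9 transporter genes in KO_RA24h (left) and WT_RA24h (right), with each library as a point and the mean and SD as bars. The libraries of the 2 groups do not overlap for the first 8 genes, and they do for Slc3a2.

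The call of Slc43a3 held in all 12 other settings. It had 4.54, 4.78 and 4.30 TPM in KO_RA24h against 9.92, 10.3 and 9.22 TPM in WT_RA24h, where the wild type mean was 2.16 times as high (log2 difference -0.96, SE 0.10, limma adjusted p = 0.00329). The groups did not overlap.

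Slc1a4, Slc1a5, Slc38a7 and Slc1a3 were lower in the knockout. Slc1a4 had 9.45, 11.7 and 9.46 TPM in KO_RA24h against 17.1, 16.1 and 17.5 TPM in WT_RA24h (log2 difference -0.68, SE 0.11, limma adjusted p = 0.0137). Slc1a5 had 85.5, 95.8 and 82.4 TPM in KO_RA24h against 124, 118 and 122 TPM in WT_RA24h (log2 difference -0.46, SE 0.07, limma adjusted p = 0.0119). For both genes the lowest wild type library was above the highest knockout library, and both calls ended when any WT_RA24h library was left out (ranges -0.78 to -0.64 and -0.52 to -0.42). Slc38a7 had 16.1, 17.4 and 16 TPM in KO_RA24h against 24.6, 22.7 and 22.4 TPM in WT_RA24h (log2 difference -0.47, SE 0.08, limma adjusted p = 0.0167, range -0.51 to -0.43). The glutamate carrier gene Slc1a3 had 5.29, 6.57 and 7.36 TPM in KO_RA24h against 9.77, 10.5 and 10.3 TPM in WT_RA24h (log2 difference -0.60, SE 0.13, limma adjusted p = 0.0325, range -0.70 to -0.49). The calls of Slc38a7 and Slc1a3 likewise ended without each wild type library and without KO_RA24h replicate 1. That of Slc1a3 also ended without KO_RA24h replicate 2 and with no filter on low values.

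The cationic carriers parted again. Slc7a1 had 30.9, 35.4 and 35.1 TPM in KO_RA24h against 49.6, 43.3 and 50.3 TPM in WT_RA24h (log2 difference -0.48, SE 0.09, limma adjusted p = 0.022, range -0.55 to -0.42). Slc7a6 had 17.7, 18.5 and 21.3 TPM in KO_RA24h against 28.1, 28 and 28.3 TPM in WT_RA24h (log2 difference -0.53, SE 0.09, limma adjusted p = 0.0155, range -0.61 to -0.48). Both calls ended without each WT_RA24h library and without KO_RA24h replicate 2, that of Slc7a1 also without KO_RA24h replicate 1. Slc7a3 had 70.6, 72.3 and 71.9 TPM in KO_RA24h against 60.9, 62.5 and 62.0 TPM in WT_RA24h, narrow groups that did not overlap (log2 difference 0.21, SE 0.05, limma adjusted p = 0.0457). That call held in 4 of the 12 other settings. It was lost with FPKM, with the correction for GC content and length and with replicate number as a block (limma adjusted p = 0.122). It was also lost without any library other than KO_RA24h replicate 3 (range 0.20 to 0.22). Slc7a3 made up 67.9 ± 1.39% of the TPM of both genes in KO_RA24h and 56.5 ± 2.24% in WT_RA24h (SD, n = 3 each).

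The members that reached 50 TPM in this experiment and did not pass were Slc3a2 (139 ± 13.9 TPM in KO_RA24h and 153 ± 4.33 TPM in WT_RA24h), Slc38a4 (147 ± 23.1 and 164 ± 8.69 TPM), Slc7a7 (159 ± 9.86 and 143 ± 4.22 TPM), Slc7a5 (75.4 ± 5.22 and 89.5 ± 5.07 TPM), Slc6a8 (70.0 ± 4.27 and 70.7 ± 2.41 TPM) and Slc38a2 (66.7 ± 8.91 and 86.0 ± 2.91 TPM, each SD with n = 3). Their log2 differences lay between -0.37 and 0.15. Slc36a4, Slc7a2 and Slc7a9, tested in this experiment alone, did not pass either, at 1.08 to 2.68 TPM per library. All 9 members past the threshold in the knockout were also past it in RA_24h against noRA_24h, a comparison with no library in common. They were 42.9% of the 21 members past the threshold with RA at 24 h that were tested in both experiments. Of the 9, 7 had opposite signs in these comparisons, or 77.8%, and Slc1a3 was among those with the same sign. Over all 12112 genes tested in both, 800 were past the threshold in both, which is 66.1% of those past it in the knockout and 18.2% of those past it with RA, and 75.8% of the 800 had opposite signs. The share of opposite signs among the members was thus near that of all genes. The 6 primitive endoderm markers were lower and 6 of the 7 pluripotency markers higher in KO_RA24h, and their part in the transporter differences was not tested.

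Genes of the amino acid response were mostly lower at 12 h without RA than at 0 h, and mostly higher at 24 h than at 12 h. The list of 19 genes holds Atf4, genes of its partners and targets, and the kinase genes Eif2ak3 and Eif2ak4. Of the 19, 15 were lower and 2 higher in noRA_12h than in ESC_0h (89.5% of those tested against 42.5% of all genes). Their median log2 difference was -1.50, against -0.04 for all genes. The largest falls were of Nupr1, a stress-induced chromatin protein gene, at 6.02 ± 0.962 TPM in noRA_12h and 91.7 ± 12.1 TPM in ESC_0h, Ddit3, a C/EBP family factor of the stress response, at 10.9 ± 0.958 and 70.3 ± 4.49 TPM, and Pck2, which makes phosphoenolpyruvate in mitochondria, at 20.2 ± 2.17 and 98.3 ± 7.77 TPM (SD, n = 3 each, log2 differences -3.72, -2.59 and -2.23). Asparagine synthetase, Asns, averaged 685 ± 24.8 TPM in noRA_12h and 1452 ± 38.4 TPM in ESC_0h (-1.08, limma adjusted p = 9.5e-10). In noRA_24h against noRA_12h, 14 of the 19 were higher and 2 lower (84.2% of those tested against 39.6% of all genes, median 0.94 against 0.05 for all genes), led by Nupr1, Chac1, a glutathione-degrading enzyme gene, and Ddit4, an inhibitor gene of mTORC1 (2.81, 2.14 and 2.00). Asns was lower again (-0.38). In noRA_24h against ESC_0h, 11 of the 19 were lower and 4 higher (78.9% of those tested against 51.9% of all genes). The median of that comparison was -0.34, against 0.03 for all genes.

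With RA, more of the list was higher than lower at both times. In RA_24h against noRA_24h 10 of the 19 were higher and 1 lower (57.9% of those tested against 35.2% of all genes, median 0.50 against 0.02 for all genes). Ddit3 averaged 128 ± 4.0 TPM in RA_24h and 45.8 ± 2.10 TPM in noRA_24h, Atf5 69.6 ± 6.5 and 31.2 ± 0.872 TPM, and Atf4 itself 428 ± 33.1 and 277 ± 6.37 TPM (SD, n = 3 each, limma adjusted p = 2.5e-08, 1.93e-06 and 2.29e-05). At 12 h 7 were higher and 2 lower (47.4% of those tested against 17.4% of all genes). In KO_RA24h against WT_RA24h 10 of the 19 passed, each of them lower (52.6% of those tested against 9.99% of all genes, median -0.37 against -0.05 for all genes), led by Stc2, Chac1 and Pck2 (-0.79, -0.72 and -0.56).

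Serine, glycine and one-carbon genes and the cytosolic aminoacyl-tRNA synthetases, which load amino acids onto tRNA, are set beside them here. Of the 9 serine, glycine and one-carbon genes, 8 passed in noRA_12h against ESC_0h, each of them lower (88.9% of those tested against 42.5% of all genes, median -0.75). In noRA_24h against noRA_12h 7 were higher and 2 lower (100% of those tested against 39.6% of all genes), and in RA_24h against noRA_24h 5 were higher and 1 lower (66.7% of those tested against 35.2% of all genes). Psat1, of serine synthesis, averaged 198 ± 10.8 TPM in noRA_12h and 459 ± 22.4 TPM in ESC_0h. Phgdh, the first enzyme of that path, averaged 315 ± 45.0 TPM in RA_24h and 186 ± 5.78 TPM in noRA_24h (SD, n = 3 each, limma adjusted p = 4.89e-05). Of 20 synthetase genes, 11 were lower and 1 higher in noRA_12h than in ESC_0h (60% of those tested against 42.5% of all genes, median -0.56). In noRA_24h against noRA_12h 14 were higher and 2 lower (80% of those tested against 39.6% of all genes), and in RA_24h against noRA_24h 11 were higher and 0 lower (55% of those tested against 35.2% of all genes, median 0.25). Sars led the falls at 12 h (-1.16) and Wars the rises with RA at 24 h (0.47). In KO_RA24h against WT_RA24h 3 of the 9 and 4 of the 20 passed, each of them lower (33.3% and 20% against 9.99% of all genes, medians -0.20 and -0.12).

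**Figure D4:**
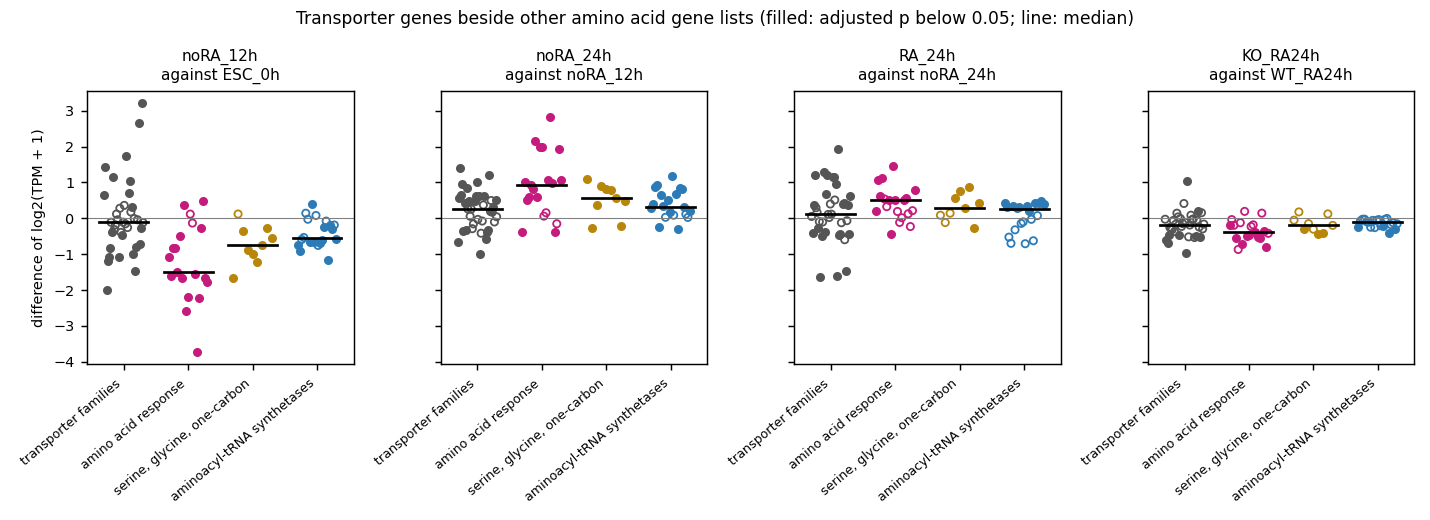
Differences of log2(TPM + 1) for the transporter genes and 3 other lists of amino acid genes in 4 comparisons, with 1 point per gene, filled where the limma adjusted p was below 0.05, and a line at the median of each list. The amino acid response genes lie mostly below 0 in noRA_12h against ESC_0h and above 0 in noRA_24h against noRA_12h, while the transporter genes spread to both sides.

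The response element core was no common property of the members' promoters. RefSeq windows of 250 bases before to 50 after the start were found for 43 of the 61 members, some of them with several windows. That core was in 5 of the 64 member windows on either strand, or 7.81%, against 3.97% of all 32851 windows in the table. These 5 include overlapping windows of Slc7a7 that share a match. Counted by gene, it was found for 4 of the 43 members, or 9.3%, and for 33.3% of the 18 amino acid response genes with a window. The share by gene over all genes was not computed, and the 3.97% of windows is no background for these shares. Besides Slc7a7 and Slc1a4 the members with a match were Slc7a11, a known target of ATF4 with matches 66 and 47 bases before the start, and Slc6a21, which was not tested. Of the 25 members tested in the time course with a window, 3 held a match. Tested members with no window included Slc1a5, Slc38a1, Slc38a3, Slc43a3, Slc6a15, Slc6a6, Slc6a7, Slc6a8, Slc7a3 and Slc7a5.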

How the data were processed

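The authors' deposited gene abundance tables give, for each library and gene, read coverage, FPKM and TPM, per the file headers. Per the submitters' processing notes, HISAT2, StringTie and mm10 were used, with version and strand setting not given in the sources used here. Each time course library is listed over 32285 Ensembl genes and each Cyp26a1 library over 25239 symbols, so levels were never compared between them. The deposited TPM values are the measure used throughout, and the deposited FPKM values an alternative. Depth in aligned bases was estimated for each library by dividing coverage by FPKM gene by gene and taking the commonest quotient. That quotient was shared by 10.31% to 11.03% of genes per time course library and by 58.34% to 59.1% per Cyp26a1 library. The time course depths thus rest on a minority of genes. How many reads lie behind a single value is not known, and no counting interval was computed.

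Genes that reached 1 TPM in 3 or more libraries of their experiment were tested with limma 3.58.1 in R 4.3.3 on log2(TPM + 1), with group means, an intensity trend and Benjamini-Hochberg adjustment over all 13948 or 12848 genes, at a threshold of 0.05. The pseudocount of 1 understates changes of low genes. All 15 time course libraries shared 1 model and the 6 Cyp26a1 libraries another. The script was tested on simulated data with known changes. Summaries used Python 3.11.15. The members and lists were chosen with earlier results of these data known. Named in each comparison were up to 8 higher and 8 lower members with the largest change and groups without overlap, Slc3 heavy chains and members with a mean of at least 50 TPM, and up to 3 genes of each other list. Some genes that enter the counts are not reported here by name. Further genes (Asns, Atf4, Phgdh, Psat1 and members below these limits) were named after their values were seen. Replicates within a group correlated at Pearson r 0.958 to 0.996 across time course groups, and at 0.975 to 0.995 among the knockout and wild type libraries. Same-numbered knockout and wild type libraries deviated together (r 0.319, 0.189 and 0.536). The main model fitted group means without this pairing, and replicate number entered only as a block in an alternative setting. Alternatives were a pseudocount of 0.1, no filter on low values, median-of-ratios scaling, FPKM, the replicate number as a block, fitting the compared groups only, a correction for GC content and length from GENCODE M21 (splines with 4 degrees of freedom, known for 99.92% and 98.01% of the genes) and leaving out each library. Promoter windows were taken from the RefSeq table of GRCm38.p6.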

Additional observations from a re-analysis of the deposited data

Results flagged for a closer look

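The difference between RA and noRA cells changed between 12 h and 24 h for 4 members, by a test of that change itself in the 15-library limma model. For Slc1a5 it was larger at 24 h by 0.88 on the log2 scale. For Slc43a1 it was smaller at 24 h, with a change of -1.07. Both calls held under all 19 other settings, each library left out in turn included. For Slc7a3, lower with RA at both times, the change was -0.35 (limma adjusted p = 0.0468), and that call held in 4 of the 19 other settings. The 6 primitive endoderm markers changed in the same contrast, each with a larger RA difference at 24 h, and their part in these results was not tested.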

How the results depend on the processing

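Across the other settings apart from leaving out libraries, 1628 values of single members kept their direction and side of the threshold, 56 lost a call, 30 gained one and 2 reversed. Genes of the other lists are not in these counts. Leaving out single libraries kept 1594, lost 103, gained 19 and reversed 0. The reversals came with the correction for GC content and length, in RA_24h against noRA_24h, where Slc38a4 had a log2 difference of 0.165 (limma adjusted p = 0.0305) and Slc3a2 of -0.1697 (limma adjusted p = 0.0443), neither past the threshold without it. The count of members past the threshold in the knockout comparison was 9 and ran between 2 and 14 when a library was left out, and that of all genes was 1284 and ran between 314 and 3156. In RA_24h against noRA_24h 4915 genes were past the threshold, and leaving out libraries gave 3832 to 7531, the last without RA_24h replicate 2. For the change of the RA difference the count was 955, with 655 to 1620, the last again without RA_24h replicate 2. For the other comparisons, all counts stayed within 1.5 times. The correction for GC content and length turned the split of all genes to 1428 higher and 1835 lower in RA_12h against noRA_12h (1428 and 1003 without it), to 2653 and 2388 in RA_24h against noRA_24h (3178 and 1737 without it), to 2898 and 2160 in noRA_24h against noRA_12h (2380 and 3148 without it), to 3134 and 3585 in noRA_12h against ESC_0h (3073 and 2849 without it), and to 3775 and 3432 in noRA_24h against ESC_0h (3547 and 3697 without it). The cause was not tested for any of these.

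With replicate number as a block, the knockout comparison gave 9 members and 1162 genes past the threshold, and the only member call it ended was that of Slc7a3 (limma adjusted p = 0.122). In the time course the numbers do not pair the libraries (correlations of deviations between -0.837 and 0.415), and the block gave 21, 23, 20, 14, 21 and 3 members in the order noRA_12h and noRA_24h against ESC_0h, noRA_24h against noRA_12h, RA_12h and RA_24h against their noRA group and the change between times. With 3 libraries a group and levels near 1 TPM, differences of low members are the least certain.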

Other observations

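Amino acid turnover genes held some of the largest differences beside the carriers. Threonine dehydrogenase, Tdh, by which mouse ESCs feed threonine into one-carbon metabolism, averaged 46.8 ± 6.55 TPM in RA_24h and 236 ± 4.06 TPM in noRA_24h (log2 difference -2.32, SE 0.08, limma adjusted p = 2.18e-10), and it was lower in noRA_24h than in ESC_0h (-1.86, limma adjusted p = 7.87e-10). It was higher in KO_RA24h, at 82.2 ± 5.19 TPM, than in WT_RA24h, at 43.5 ± 3.91 TPM (SD, n = 3 each, log2 difference 0.90, SE 0.09, limma adjusted p = 0.00276). Glutamine synthetase, Glul, was higher in noRA_12h than in ESC_0h (log2 difference 2.11, SE 0.07, limma adjusted p = 1.38e-10). The proline synthesis genes Aldh18a1 and Pycr1 were lower in noRA_12h than in ESC_0h (-1.77 and -1.44) and in KO_RA24h than in WT_RA24h (-0.76 and -1.44). Of the list, 6 of 20 genes were higher and 11 lower in noRA_12h than in ESC_0h (85% of those tested against 42.5% of all genes), 6 higher and 5 lower in RA_24h than in noRA_24h (55% of those tested against 35.2% of all genes), and 3 higher and 6 lower of 21 in KO_RA24h than in WT_RA24h (42.9% of those tested against 9.99% of all genes).

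Genes by which mTORC1 senses amino acids were split. In RA_24h against noRA_24h 6 of 22 were higher and 6 lower (54.5% of those tested against 35.2% of all genes, median 0.04), with the largest falls in the Rag GTPase genes Rragb (log2 difference -1.55, SE 0.21, limma adjusted p = 9.55e-05) and Rragd (log2 difference -1.15, SE 0.18, limma adjusted p = 0.000308). In noRA_12h against ESC_0h 5 were higher and 5 lower (45.5% of those tested against 42.5% of all genes), led by Rragd (-1.55). In KO_RA24h against WT_RA24h Castor2, a relative of the arginine sensor gene Castor1, was the 1 gene past the threshold (log2 difference -0.93, SE 0.16, limma adjusted p = 0.0184), 4.55% of those tested against 9.99% of all genes. Among amino acid carriers of other families, 4 of 16 were higher and 1 lower in RA_24h than in noRA_24h (31.2% of those tested against 35.2% of all genes, a share near the background), with the vesicular glutamate carrier gene Slc17a7 (log2 difference 1.55, SE 0.13, limma adjusted p = 1.07e-06) and the peptide carrier gene Slc15a1 (log2 difference 0.88, SE 0.12, limma adjusted p = 7.79e-05) in the lead.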
